A study of Mus musculus with 4 samples.

Results

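The Dlk1-Dio3 cluster is an imprinted gene domain on mouse chromosome 12, and it was followed here through 6 genes: Dlk1, Meg3, Rtl1, Rian, Mirg and Dio3. Its members were all probes of the array that carry one of these 6 names and are not controls. There were 9 such probes of 55681. They cover 5 of the 6 genes, and 5 of the 35157 genes with a value, since no probe bears the name Rian. Gene expression had been measured with 1-colour Agilent arrays in 4 mouse cell populations with 1 array each. They were the induced pluripotent stem cell lines iPS-OSH and iPS-J, both of C57BL/6 background, an embryonic stem cell line (ESC) of 129SV background, and mouse embryonic fibroblasts (MEF) of C57BL/6 background. iPS-OSH, iPS-J and ESC had grown in serum medium with LIF, a cytokine that holds mouse cells in the pluripotent state, and MEF in serum medium without it. The study set the profiles of these 4 populations against one another, and each line is known here through 1 RNA preparation.

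Genomic imprinting is the expression of a gene from only the chromosome inherited from one parent. In this cluster the protein-coding genes Dlk1, Rtl1 and Dio3 are known to be transcribed from the paternal chromosome, and the noncoding RNAs Meg3 (also called Gtl2), Rian and Mirg from the maternal one, these 3 in one direction along the chromosome. An intergenic region between Dlk1 and Meg3, methylated on the paternal copy, directs this pattern, and the noncoding RNAs carry a large set of microRNAs and small nucleolar RNAs. The maternally expressed RNAs are known to be silenced in many mouse iPS cell lines, which made the cluster a widely used readout when iPS and ES cells are compared.

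The probe sequences below are of probes for the noncoding RNAs Meg3 and Mirg, which differed between iPS-J and each other population, and for the coding sequence of Dlk1, the gene farthest apart between MEF and the rest. They are given 5′ to 3′ in lower case, as the scanner output lists them, and their positions are in the mm9 assembly. The Dlk1 probe lies at chr12:110698502-110698561. Meg3 probes 2 and 3 lie at chr12:110799558-110799617 and chr12:110809678-110809737, and the Mirg probes at chr12:110979653-110979712 and chr12:110987569-110987628, all on the forward strand. Exon and intron were not assigned, since no annotation of mm9 was used here.
Dlk1 probe 1: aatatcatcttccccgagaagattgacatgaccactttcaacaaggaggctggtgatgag
Meg3 probe 2: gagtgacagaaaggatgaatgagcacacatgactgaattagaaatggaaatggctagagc
Meg3 probe 3: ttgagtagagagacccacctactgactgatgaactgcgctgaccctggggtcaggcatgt
Mirg probe 1: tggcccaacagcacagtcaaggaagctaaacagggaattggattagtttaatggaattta
Mirg probe 2: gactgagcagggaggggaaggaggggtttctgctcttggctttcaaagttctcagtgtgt

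In RefSeq's GRCm38.p6 annotation the noncoding genes follow one another on chromosome 12, Meg3 at chr12:109540996-109571729, Rian at chr12:109603945-109661716 and Mirg at chr12:109734981-109749458. These coordinates are of another assembly than those of the probes, and only the order of genes was carried over. Promoter windows of 300 bases were matched in RefSeq's GRCm38.p6 table for 5 of the 6 genes, all but Rtl1. The windows of Meg3 (chr12:109540746-109541045) and Mirg (chr12:109734731-109735030), both on the forward strand, are shown because these RNAs moved together in what follows. Capitals mark CG, the dinucleotide at which mammalian DNA is methylated, which reads the same on both strands.
Meg3 promoter: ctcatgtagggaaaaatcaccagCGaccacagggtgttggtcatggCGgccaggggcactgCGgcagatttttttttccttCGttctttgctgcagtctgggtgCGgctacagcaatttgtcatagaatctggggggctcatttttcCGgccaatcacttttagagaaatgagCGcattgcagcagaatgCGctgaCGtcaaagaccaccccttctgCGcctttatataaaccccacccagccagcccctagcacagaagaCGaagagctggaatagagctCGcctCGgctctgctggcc
Mirg promoter: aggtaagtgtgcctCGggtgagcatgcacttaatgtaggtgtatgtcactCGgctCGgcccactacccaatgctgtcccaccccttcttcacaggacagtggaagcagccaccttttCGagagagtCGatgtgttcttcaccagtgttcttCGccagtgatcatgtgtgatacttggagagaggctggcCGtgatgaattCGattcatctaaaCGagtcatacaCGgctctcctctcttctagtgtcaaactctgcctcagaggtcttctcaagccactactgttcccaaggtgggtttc

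The Meg3 window holds 13 CG, and 37.9% of all 32851 promoter windows hold at least as many. A further Meg3 start in the same table has 1 CG in its window. The Mirg window holds 10 CG (43.5% of windows with at least as many), that of Dlk1 holds 9 (45.8%), that of Dio3 holds 25 (18.4%) and that of Rian holds 0, against a median of 7 over all windows. Methylation was not measured in these samples, so these counts describe the sequence alone.

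The span of the cluster also holds 58 microRNA hairpin entries and 114 mature microRNA entries in the RefSeq table, and 54 of the hairpin entries lie on the forward strand, that of Meg3 and Mirg. By position alone, without regard to strand, 3 of the mature entries lie inside Meg3, 29 inside Rtl1, 6 inside Rian and 19 inside Mirg. The other 57 lie in none of them. Most of those inside the span of Rtl1 are on the forward strand, opposite to the Rtl1 probe, so they are not part of the Rtl1 transcript. The array has 0 probes named for these microRNAs, so only the long transcripts around them were measured. A few mature sequences are printed to show what this span carries, with the seed, bases 2 to 8, in capitals.
mmu-miR-770-3p: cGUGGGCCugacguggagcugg
mmu-miR-370-3p: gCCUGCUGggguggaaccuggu
mmu-miR-377-3p: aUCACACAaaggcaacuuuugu
mmu-miR-410-5p: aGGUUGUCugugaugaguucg
mmu-miR-494-5p: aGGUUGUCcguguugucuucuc

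The first of these lies in Meg3, the second in Rian, and miR-377-3p and miR-410-5p in Mirg. miR-410-5p and miR-494-5p have the same seed, 1 of 9 seeds that more than 1 named mature microRNA of the cluster shares. miR-494-5p lies in none of the annotated genes.

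Signals are given relative to the array: the processed, background-subtracted signal of a probe was divided by the 75th percentile of all non-control spots of that array, so 1 is a fairly bright probe. Differences are log2 of one array's relative signal over the other's, so that 1 is 2-fold. All 4 arrays lay on 1 slide. By the scanner software's own call, 67.0% of spots were well above background in iPS-J, 78.2% in iPS-OSH, 78.4% in ESC and 81.7% in MEF. The iPS-J array also had the lowest 75th percentile signal, 1241, and the most outlier spots left out, 531. With 1 array per population no test was possible, and a gene was called higher or lower at a difference of at least 2-fold, on size alone. The only error that could be measured is that between spots: probes printed 10 times on each array gave a median SD of 0.12 to 0.19 for a log2 difference. As a root mean square, the SD was 0.34 to 0.56 for dim probes, those below a relative signal of 0.2, and 0.13 to 0.26 for bright ones. This spot error holds no biological variation, so a difference beyond it is a difference between these RNA preparations. The iPS lines were scanned in one session, ESC in another and MEF in a further one, and ESC also differed in strain, so session, strain and cell type cannot be told apart for comparisons with ESC, nor session and cell type for those with MEF. iPS-OSH against iPS-J was the only comparison within one session and one strain, though the iPS-J array had the smallest share of spots well above background.

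The labels were checked with genes of known cell type. The pluripotency factors Pou5f1, Sox2 and Nanog had relative signals of 6.68, 9.25 and 51.5 in iPS-OSH, 9.56, 11.2 and 52.2 in iPS-J, 5.66, 13.6 and 66.4 in ESC, and 0.0473, 0.00841 and 0.104 in MEF. The fibroblast genes Col1a1 and Thy1 had 38.3 and 98.1 in iPS-OSH, 7.86 and 18.1 in iPS-J, 7.38 and 13.7 in ESC, and 226 and 209 in MEF. The summed relative signal of 15 fibroblast markers was 452 in iPS-OSH, 127 in iPS-J, 94.7 in ESC and 1406 in MEF. Pluripotency genes were thus bright in all 3 lines labelled pluripotent and low in MEF, and iPS-OSH carried more fibroblast signal than iPS-J or ESC. In bulk RNA, fewer cells of a type and less RNA per cell cannot be told apart.

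Meg3 is a long noncoding RNA of the maternal chromosome, studied as a growth suppressor. Its brightest probe, probe 3, read 18.3 in iPS-OSH, 5.16 in iPS-J, 12.2 in ESC and 20.3 in MEF, as relative signal. iPS-J was the lowest population and ESC came next. iPS-OSH and MEF differed by less than the root mean square spot SD of bright probes in that pair, 0.19, and by slightly more than the median, 0.13. The log2 difference was 1.83 for iPS-OSH against iPS-J, 0.58 for iPS-OSH against ESC and -1.24 for iPS-J against ESC. Against MEF it was -0.15 for iPS-OSH, -1.98 for iPS-J and -0.73 for ESC. The 2-fold rule therefore set iPS-J below each of the others, while iPS-OSH, ESC and MEF stayed within 2-fold of one another.

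The other Meg3 probes gave the same order of populations. Probe 1 had 2.23 in iPS-OSH, 0.555 in iPS-J, 2.02 in ESC and 2.84 in MEF. Probe 2, designed on another Meg3 transcript, had 0.512 in iPS-OSH, 0.110 in iPS-J, 0.248 in ESC and 0.894 in MEF. For iPS-OSH against iPS-J the log2 difference was 2.01 with probe 1 and 2.21 with probe 2, and for iPS-J against ESC it was -1.86 and -1.17. All 3 probes thus put iPS-J at least 2-fold below iPS-OSH and ESC. They were less alike for iPS-OSH against ESC, at 0.14 with probe 1 and 1.05 with probe 2, and for ESC against MEF, where probe 2 gave -1.85 and probe 1 gave -0.49.

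Mirg is the noncoding RNA at the far end of the microRNA region and hosts several microRNA hairpins. Probe 2, the brighter one, had 3.63 in iPS-OSH, 0.905 in iPS-J, 2.54 in ESC and 4.46 in MEF. Probe 1 had 1.38 in iPS-OSH, 0.350 in iPS-J, 0.782 in ESC and 2.26 in MEF. Both put the populations in the order seen for Meg3, with iPS-J lowest and MEF highest. The log2 difference of probe 2 was 2.00 for iPS-OSH against iPS-J, 0.52 for iPS-OSH against ESC and -1.49 for iPS-J against ESC. With probe 1 these differences were 1.98, 0.82 and -1.16. Against MEF, probe 2 gave -0.30 for iPS-OSH, -2.30 for iPS-J and -0.82 for ESC, and probe 1 gave -0.72, -2.69 and -1.53.

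Mirg and Meg3 kept close to each other in each pair of populations. The Mirg difference minus the Meg3 difference, with the brightest probe of each, ran from -0.33 for iPS-J against MEF to 0.18 for iPS-OSH against iPS-J. Over the 4 arrays the profiles were compared by the root mean square distance between log2 signals, each centred on its own mean, among 9870 named genes above background on all arrays and with a range of at least 2-fold. Mirg was the third closest gene to Meg3, and Meg3 the third closest to Mirg, at a distance of 0.12. Tnfrsf22, a receptor of the tumour necrosis factor family, was closest to both, at 0.09 from Meg3 and 0.08 from Mirg. With 4 arrays a short distance describes these arrays only.

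**Figure D1:**
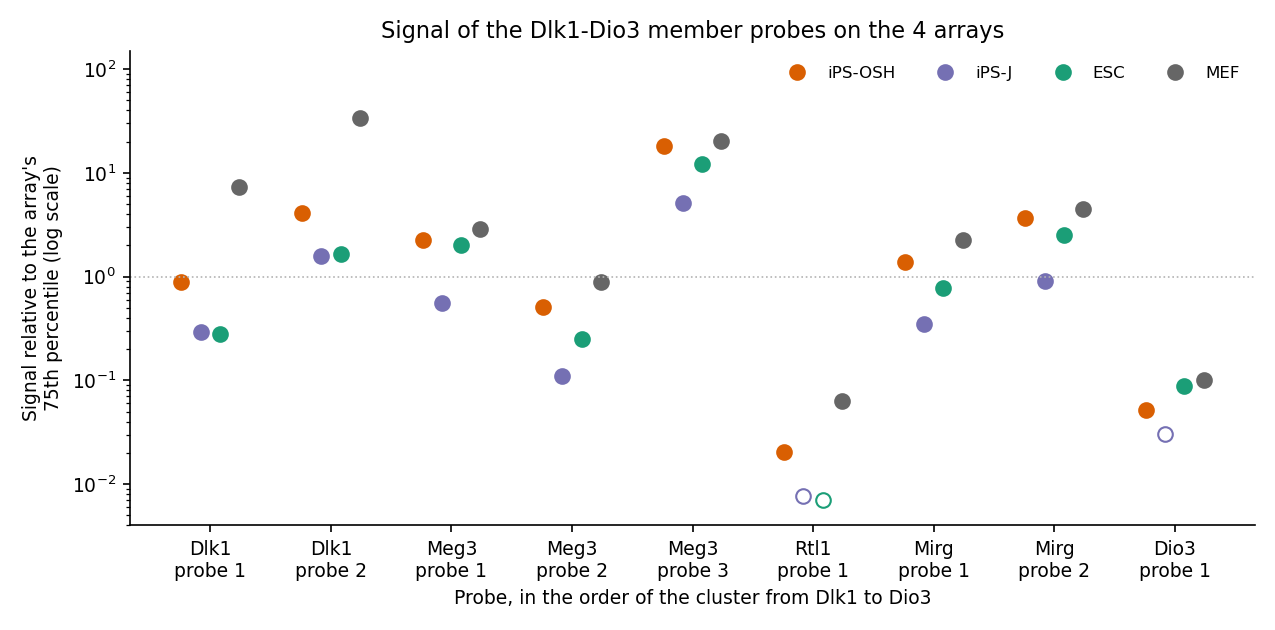
Signal of the 9 member probes relative to each array's 75th percentile, on a log axis, with probes in the order of the cluster. Each point is 1 array, filled where the probe was well above background and open where it was not. The 5 probes of Meg3 and Mirg are lowest in iPS-J, while both Dlk1 probes are far highest in MEF and at like levels in iPS-J and ESC.

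Dlk1 encodes a membrane protein with epidermal growth factor-like repeats that is related to the Notch ligands and is known for holding back adipocyte differentiation. Its brighter probe 2, at chr12:110698721-110698781, had 4.11 in iPS-OSH, 1.58 in iPS-J, 1.64 in ESC and 33.9 in MEF. Probe 1 had 0.877 in iPS-OSH, 0.290 in iPS-J, 0.277 in ESC and 7.29 in MEF. MEF was far the highest population on both probes, iPS-OSH was next, and iPS-J and ESC lay together. The log2 difference of probe 2 was 1.33 for iPS-OSH against ESC, -0.05 for iPS-J against ESC and 1.38 for iPS-OSH against iPS-J. Against MEF it was -3.04 for iPS-OSH, -4.42 for iPS-J and -4.37 for ESC. Probe 1 differed from these values by little, with 1.66, 0.06 and 1.60 among the pluripotent lines and -3.05, -4.65 and -4.72 against MEF.

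Dlk1 and Meg3, the neighbours on either side of the intergenic control region, had unlike profiles. In iPS-J against ESC, Meg3 was more than 2-fold lower while Dlk1 differed by less than the spot error, and the Dlk1 difference exceeded that of Meg3 by 1.19. Against MEF the Dlk1 difference minus that of Meg3 was -2.90 for iPS-OSH, -2.45 for iPS-J and -3.64 for ESC, on the log2 scale. The distance between both profiles was 1.36. The genes closest to Dlk1 were Tbc1d8b at 0.07, Mfap2, a microfibril protein, at 0.12 and Itga11, a collagen-binding integrin, at 0.12, each brightest in MEF and next brightest in iPS-OSH.

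Rtl1 encodes a protein derived from a retrotransposon and needed in the placenta, and its probe lies on the reverse strand at chr12:110828379-110828438. Its relative signal was 0.0203 in iPS-OSH and 0.0627 in MEF, where it was well above background. It was 0.00766 in iPS-J and 0.00708 in ESC, and on neither array was it well above background. The log2 difference was -1.63 for iPS-OSH against MEF. With the processing used here, Rtl1 was at least 2.74-fold lower in iPS-J than in MEF and at least 2.54-fold lower in ESC. These limits set the lowest signal called well above background on the dim array against the bright one, and for iPS-OSH against iPS-J or ESC such a limit gave no fold. The Rtl1 values depended on the processing. Over the settings tried, the log2 difference ran from -3.03 to -0.25 for iPS-J against MEF and from -3.15 to -0.41 for ESC against MEF. For iPS-OSH against MEF it ran from -1.80 to -0.61. Rtl1 is dim on every array, and at this level the spot SD of a difference is the 0.34 to 0.56 given above. Its probe is on the strand opposite to Meg3.

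Dio3 encodes the deiodinase that inactivates thyroid hormone, and it lies at the end of the cluster farthest from Dlk1. Its probe, at chr12:111518792-111518851, had 0.0520 in iPS-OSH, 0.0304 in iPS-J, 0.0891 in ESC and 0.101 in MEF. The signal in iPS-J was not well above background but exceeded the lowest one called so on that array, so it set the limit itself. By it, with the processing used here, iPS-J was at least 2.93-fold lower than ESC and at least 3.33-fold lower than MEF. In the same way iPS-OSH was at least 1.71-fold higher than iPS-J. Over the settings tried, the log2 difference of iPS-J ran from -1.76 to -0.60 against ESC and from -2.24 to -0.65 against MEF. The log2 difference was -0.78 for iPS-OSH against ESC, -0.96 for iPS-OSH against MEF and -0.19 for ESC against MEF. None of these last differences reached 2-fold, and that of ESC against MEF was below the spot SD for dim probes. Dio3 shared the low level in iPS-J with Meg3 and Mirg, at a much dimmer signal.

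Counted over the cluster, iPS-OSH against iPS-J put 3 of the 5 measured genes past 2-fold upward (Dlk1, Meg3 and Mirg) and 0 downward, where 8.91% of all 29242 genes compared were higher and 7.36% lower. The median difference was 1.60 over the 4 members with a fold and 0.01 over all genes. In iPS-J against ESC, 3 of 4 members were lower (Meg3, Mirg and Dio3) and 0 higher, with 25.9% of all genes lower and 5.50% higher, and medians of -1.36 and -0.21. The call for Dio3 was lost with quantile normalization, at -0.60, and with normexp background correction, at -0.76, which left 2 members lower. In iPS-OSH against ESC, 1 of 5 was higher, Dlk1, and 0 lower, where 8.86% of all genes were higher and 27.6% lower, with medians of 0.55 and -0.30. Where more than 1 of these members was called, the calls ran in one direction. In iPS-J against ESC that direction was also the common one, since only 17.5% of all genes called were higher.

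Against MEF no member was called higher. Dlk1 and Rtl1 were lower in iPS-OSH, 2 of 5, against 25.1% of all genes lower and 13.7% higher, with medians of -0.96 and -0.33. All 5 were lower in iPS-J, Rtl1 and Dio3 by limits, against 26.2% of all genes lower and 16.2% higher, with medians of -1.98 and -0.31. Dlk1 and Rtl1 were the 2 of 5 lower in ESC, against 16.7% lower and 22.6% higher, with medians of -0.82 and 0.13. The comparisons share arrays, so their values are not independent of one another.

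**Figure D2:**
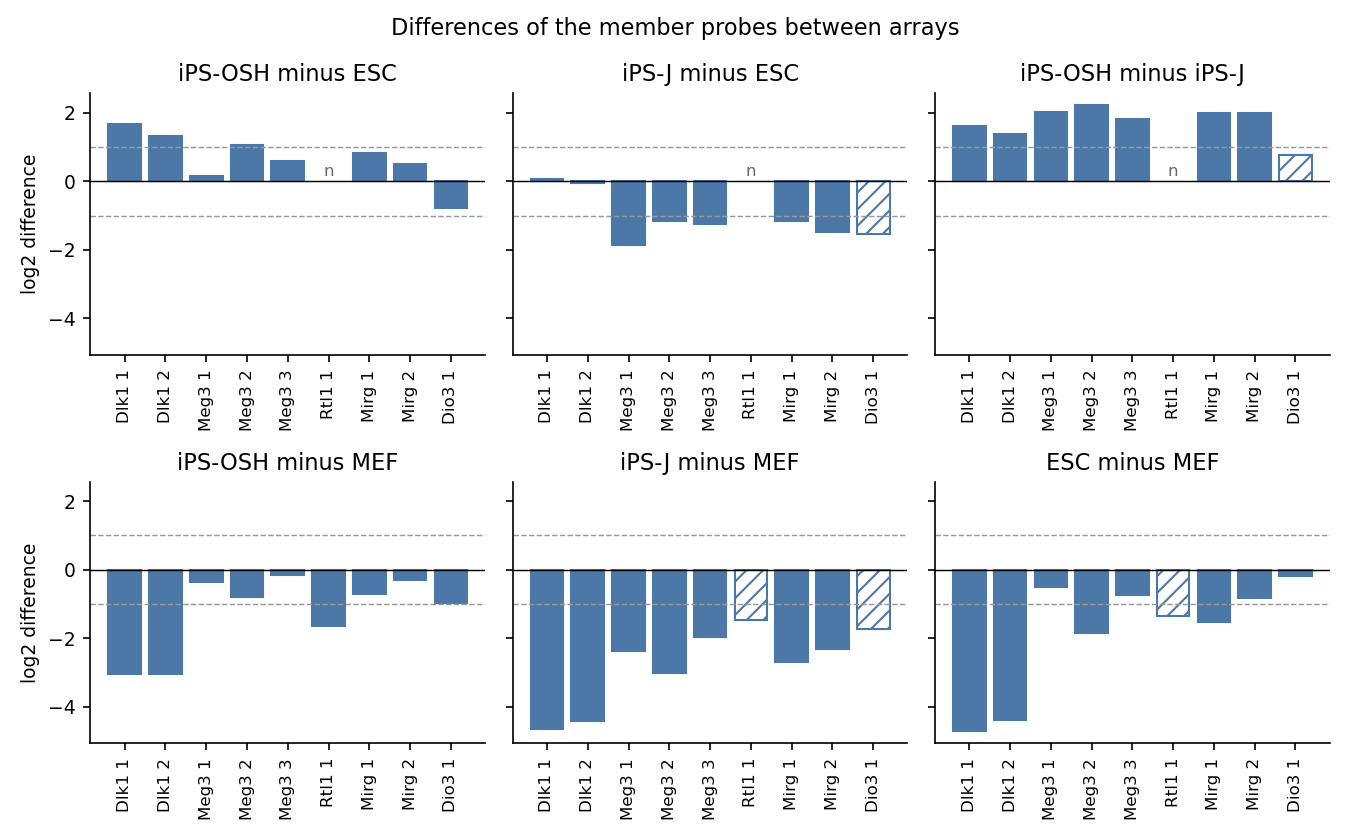
Log2 differences of the 9 member probes in the 6 comparisons, with dashed lines at 2-fold. Filled bars are measured on both arrays, hatched bars are limits because 1 array was not well above background, and n marks no fold. The 5 Meg3 and Mirg bars run from 1.83 to 2.21 in iPS-OSH minus iPS-J and from -1.86 to -1.16 in iPS-J minus ESC, and those of Dlk1 from -4.72 to -3.04 in the comparisons with MEF.

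The array holds further probes inside the cluster. Between the first Dlk1 probe and the Dio3 probe, a span of 820.35 kb in mm9, lay 119 probes, of which 110 were not members. Of these, 101 are named for a lincRNA region by coordinates and strand, in 15 regions, and many therefore tile the same transcript and are not independent. On at least 1 array, 98 of the 110 were detected, meaning well above background. Of the 85 probes compared between iPS-OSH and iPS-J, 26 were higher in iPS-OSH by 2-fold or more and 2 were lower. The median was 0.57 over the 82 with a fold. Over all lincRNA region probes of the array 7.52% were higher and 6.26% lower.

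The higher probes sat where the noncoding RNAs are transcribed. From the last Meg3 probe to the end of Mirg, on the forward strand, 20 of 39 probes compared were higher in iPS-OSH than in iPS-J and 0 lower, with a median of 1.17. On the reverse strand of the same stretch 4 of 18 were higher and 0 lower, with a median of 0.42. Between Dlk1 and Meg3, 1 of 9 was higher and 1 lower (median 0.35), and between Mirg and Dio3, 1 of 19 was higher and 1 lower (median 0.24). Rian lies within the first of these stretches by the RefSeq order, but no probe there bears its name, and none was assigned to it.

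For iPS-J against ESC, 30 of 39 forward probes from Meg3 to the end of Mirg were lower and 0 higher, with a median of -1.28. Here the background is high, since 39.6% of all lincRNA region probes were lower and 4.78% higher. Lower probes also made up 12 of 20 on the reverse strand of that stretch, 5 of 9 between Dlk1 and Meg3 and 9 of 18 between Mirg and Dio3. iPS-OSH against ESC gave 1 higher and 9 lower of 40 forward probes in the stretch, with a median of -0.04, where 4.95% of lincRNA region probes were higher and 37.9% lower. Over all lincRNA region probes the median was -0.69 for iPS-OSH against ESC and -0.76 for iPS-J against ESC. At the median, the forward probes of the stretch were thus near the ESC level in iPS-OSH and below it in iPS-J. Relative to all lincRNA region probes they lay higher in iPS-OSH and lower in iPS-J. The balance of calls for iPS-OSH against ESC turned with spike-in scaling, which gave 5 higher and 2 lower, and with quantile normalization, which gave 5 and 4. Against MEF they were lower in 5 of 42 cases for iPS-OSH, in 26 of 40 for iPS-J and in 6 of 41 for ESC, and higher in 1, 1 and 6. Over all lincRNA region probes, 28.9% were lower and 12.9% higher in iPS-OSH than in MEF. The shares were 28.7% and 12.5% for iPS-J, and 10.0% and 23.4% for ESC. For ESC against MEF the even count depended on the scaling, with 18 lower and 3 higher under spike-in scaling and 12 lower and 5 higher under quantile normalization.

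**Figure D3:**
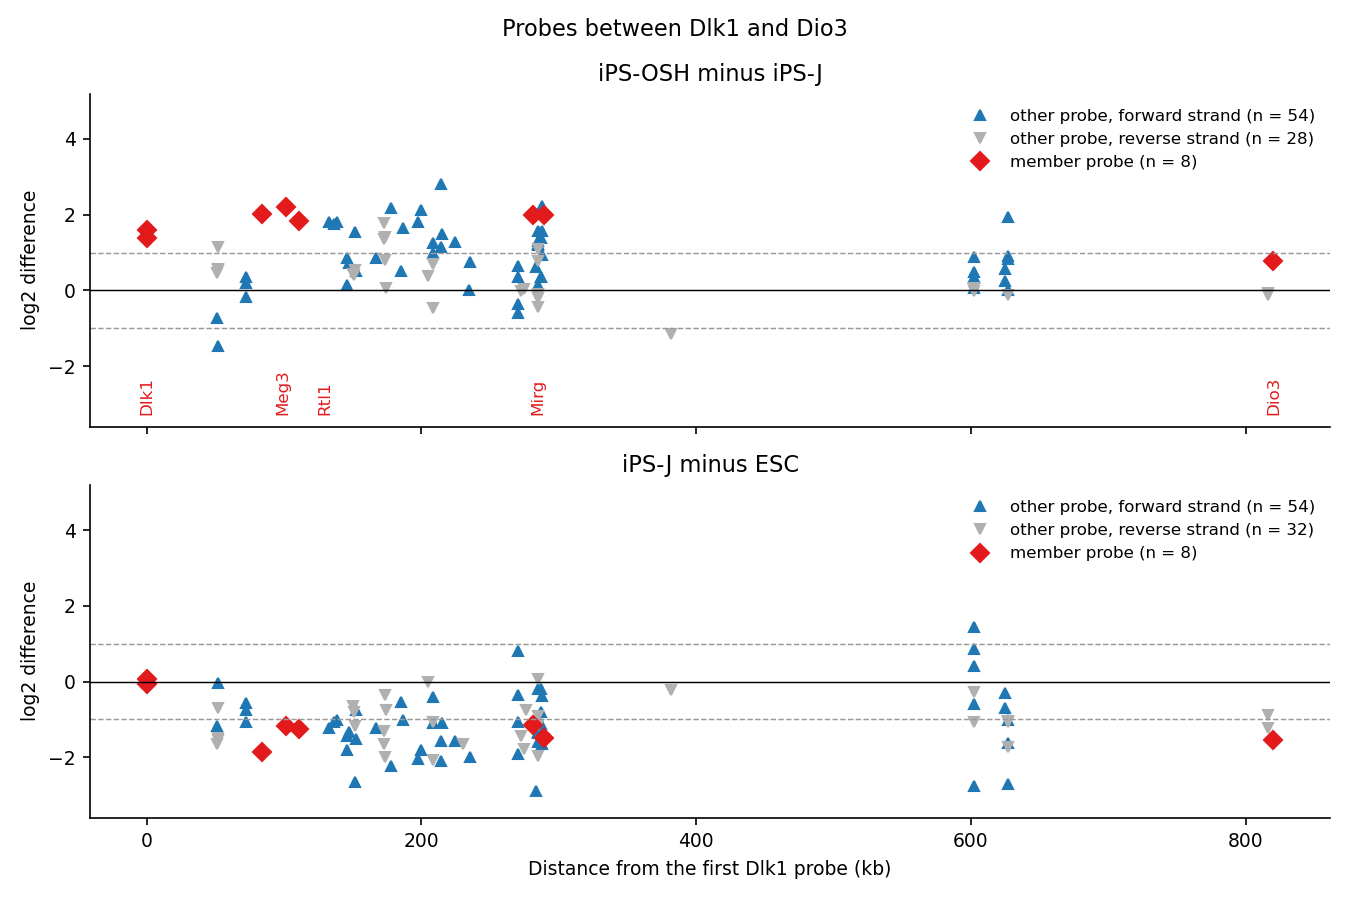
Log2 difference of each probe between Dlk1 and Dio3 by its distance from the first Dlk1 probe in kb, for iPS-OSH minus iPS-J (top) and iPS-J minus ESC (bottom), with dashed lines at 2-fold. Triangles are probes that are not members, by strand, and diamonds are member probes. In the upper panel the probes past 2-fold gather from Meg3 to Mirg, and in the lower panel low values are spread along the span.

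Of the probes in the span named for a gene, 3 behaved like Meg3 and Mirg in the comparisons of iPS-J with iPS-OSH and with ESC. That of 6430411K18Rik had 0.221 in iPS-OSH, 0.0637 in iPS-J, 0.148 in ESC and 0.279 in MEF, a log2 difference of 1.79 for iPS-OSH against iPS-J and -1.22 for iPS-J against ESC. Both probes of 1110006E14Rik, which lie just beyond it, gave 1.74 and 1.80 for iPS-OSH against iPS-J and -1.08 and -1.01 for iPS-J against ESC. Against MEF they gave -0.91 and -1.24 for iPS-OSH and -1.57 and -2.03 for ESC. No Meg3 or Mirg probe passed 2-fold for iPS-OSH against MEF. Others in the stretch did not follow. B830012L14Rik was brightest in ESC, with 0.301 in iPS-OSH, 0.179 in iPS-J, 0.720 in ESC and 0.185 in MEF. Gm2922 had 11.2 in iPS-OSH, 14.4 in iPS-J, 8.25 in ESC and 18.1 in MEF, so iPS-J was not its lowest population. The 2 probes of Dio3os, the transcript antisense to Dio3, differed by -0.13 and -0.08 for iPS-OSH against iPS-J, and by -1.24 and -0.88 for iPS-J against ESC. 4930511J24Rik and 3110009F21Rik were not above background on any array.

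Genes flanking the cluster were counted beside it. Of 14 listed neighbours on either side 12 were on the array, and in iPS-OSH against iPS-J 0 were higher and 2 lower, with a median of -0.31, where 8.91% of all genes were higher and 7.36% lower. The largest differences measured on both arrays were -1.05 for Hsp90aa1, a chaperone, -0.77 for Evl, an actin regulator, and -0.68 for Wars, a tRNA synthetase. Relative to ESC, 2 were higher and 1 lower in iPS-J, with a median of 0.32, where 5.50% of all genes were higher and 25.9% lower. Against MEF, 1 of 11 was higher and 1 lower in iPS-OSH, 4 of 12 higher and 2 lower in iPS-J, and 2 of 12 higher and 3 lower in ESC. Of all genes, 13.7% were higher and 25.1% lower than in MEF in iPS-OSH. The shares were 16.2% and 26.2% in iPS-J, and 22.6% and 16.7% in ESC. Begain, a neighbour of Dlk1, had 0.525 in iPS-OSH, 0.336 in iPS-J, 0.385 in ESC and 0.876 in MEF, differences of 0.65 for iPS-OSH against iPS-J and -0.20 for iPS-J against ESC.

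Of 25 measured imprinted genes outside the cluster, 4 were higher and 5 lower in iPS-OSH than in iPS-J, with a median of 0.44. Over all genes 8.91% were higher and 7.36% lower. The largest differences were -2.90 for Cdkn1c, a cell cycle inhibitor, 2.27 for Ndn, and 1.97 for Peg13, among those well above background on both arrays. Relative to ESC, 6 of 24 were higher and 3 lower in iPS-J, with a median of 0.24. In iPS-OSH 8 of 25 were higher and 5 lower. Over all genes 5.50% were higher and 25.9% lower in iPS-J than in ESC, and 8.86% and 27.6% in iPS-OSH. Imprinted genes outside the cluster thus went both ways. Against ESC, a larger part of them was higher and a smaller part lower than over all genes, in both iPS lines. Ndn had the order of populations of Meg3, with 1.68 in iPS-OSH, 0.348 in iPS-J, 0.685 in ESC and 2.50 in MEF. Its calls were others, since iPS-OSH against ESC passed 2-fold, at 1.30, and iPS-J against ESC did not, at -0.98.

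Factors known to guard or erase methylation imprints were counted next. Of 17, beside the same shares of all genes, 0 were higher and 2 lower in iPS-OSH than in iPS-J, namely Dnmt3a, a de novo DNA methyltransferase, at -1.18 and Tet1, which oxidises methylated cytosine, at -1.10. Against ESC, 5.50% of all genes were higher and 25.9% lower in iPS-J, and 8.86% and 27.6% in iPS-OSH. Of the 17 factors, 2 were higher in iPS-J than in ESC, Dnmt3l at 1.61 and Ehmt2 at 1.55. The 1 lower was Dppa3, which protects maternal imprints, at -1.85. Higher in iPS-OSH than in ESC were Aff3 at 1.23 and Zfp57, a zinc finger protein that binds methylated imprint control regions, at 1.06, and Dppa3 at -1.82 and Dnmt3a at -1.01 were lower. Of 6 Polycomb components, some of which Meg3 is known to bind, 0 passed 2-fold in iPS-OSH against iPS-J or in iPS-J against ESC, and Suz12 at -1.15 and Mtf2 at -1.19 were lower in iPS-OSH than in ESC. None of 7 genes of microRNA processing passed 2-fold among the pluripotent lines.

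The pathways of the coding members were counted in the same way. Over all genes 8.91% were higher and 7.36% lower in iPS-OSH than in iPS-J. In iPS-J against ESC 5.50% were higher and 25.9% lower. Of 15 Delta and Notch genes, the family of Dlk1, 1 was higher and 1 lower in iPS-OSH than in iPS-J. The lower one was Jag2, a Notch ligand, at -1.91. Of the 15, 0 were higher and 3 lower in iPS-J than in ESC. Of 9 thyroid hormone genes, 3 were higher and 1 lower in iPS-OSH than in iPS-J, of which Dio2, the deiodinase that activates the hormone, measured 1.28 and Slc16a10, a thyroid hormone transporter, -1.04. Relative to ESC, 3 of 8 were lower in iPS-J and 0 higher. Of 6 genes of the retrotransposon-derived Gag family of Rtl1 only 2 were on the array, Peg10 and Ldoc1, and both stayed within 2-fold among the pluripotent lines.

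**Figure D4:**
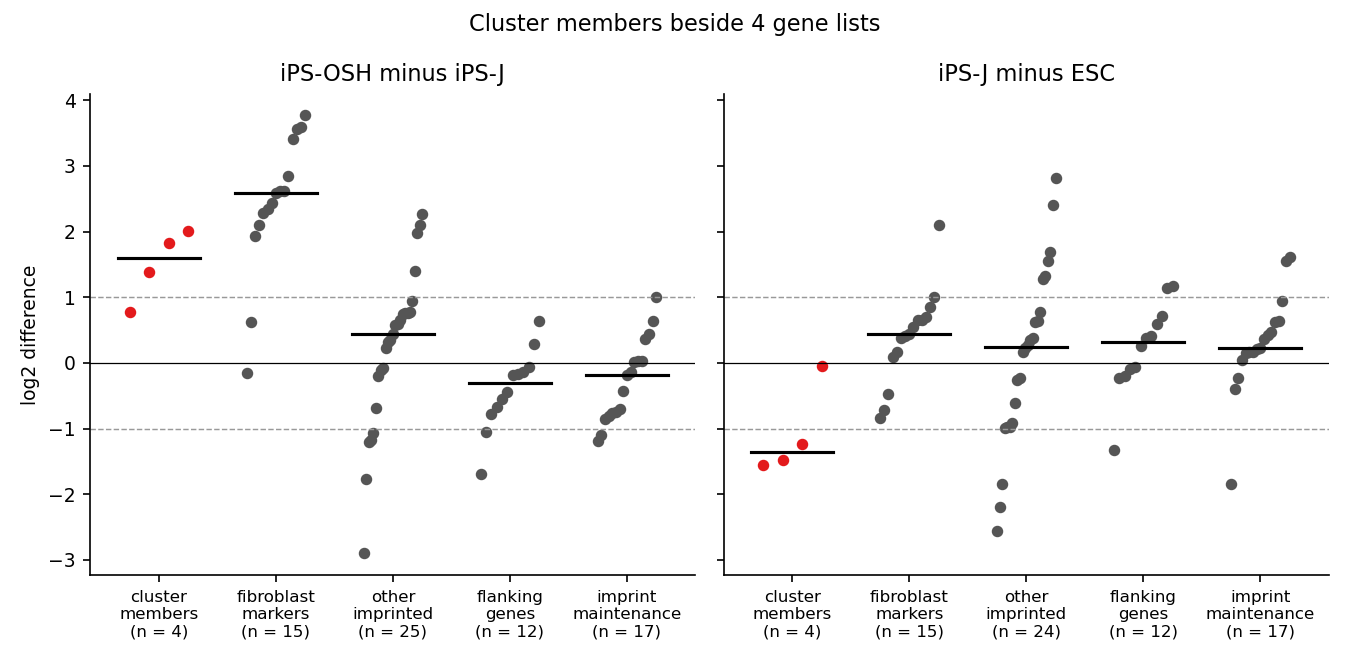
Log2 differences of the 4 cluster members with a fold beside 4 gene lists, for iPS-OSH minus iPS-J (left) and iPS-J minus ESC (right). Each point is 1 gene by its brightest probe, the bar is the median, and dashed lines mark 2-fold. Members had medians of 1.60 and -1.36, fibroblast markers 2.59 and 0.44, and flanking genes -0.31 and 0.32.

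Markers of other cell types moved with some of these results. Among all genes, 8.91% were higher and 7.36% lower in iPS-OSH than in iPS-J. Against ESC the shares were 8.86% and 27.6% for iPS-OSH, and 5.50% and 25.9% for iPS-J. Of 15 fibroblast markers, 13 were higher in iPS-OSH than in iPS-J (median 2.59), 15 higher in iPS-OSH than in ESC (median 2.78), and 1 higher in iPS-J than in ESC (median 0.44), and 0 were lower in any of the 3. Their summed signal in iPS-OSH, 452, stands beside the higher Dlk1 and the higher Meg3 and Mirg of that line, and MEF, the population with the most fibroblast signal, was highest for Dlk1 and, by less than 2-fold over iPS-OSH, for Meg3 and Mirg. Where Meg3 and Mirg were lower, in iPS-J against ESC, the fibroblast sum was not lower, at 127 against 94.7 in ESC. Of 12 primitive endoderm markers, 12 were higher in iPS-J than in ESC (median 2.74) and 10 lower in iPS-OSH than in iPS-J (median -3.86), led by Cubn at -5.35. Their summed signal was 185 in iPS-OSH, 381 in iPS-J, 108 in ESC and 341 in MEF. Most of this sum was Sparc alone, with 167 in iPS-OSH, 212 in iPS-J, 83.6 in ESC and 302 in MEF. Counted by gene, 9 of the 12 were higher and 1 lower in iPS-J than in MEF (median 4.65), beside 16.2% of all genes higher and 26.2% lower. The part of either cell type in the cluster's differences was not tested.

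Of the further marker lists, trophoblast genes gave 1 higher and 3 lower of 7 in iPS-OSH against iPS-J. Muscle and adipocyte genes gave 3 higher and 0 lower of 8, beside 8.91% of all genes higher and 7.36% lower. The 12 pluripotency markers stayed mostly within 2-fold between both iPS lines, with 0 higher and 1 lower in iPS-OSH and a median of -0.27. Against ESC, 2 were higher and 2 lower in iPS-OSH (median -0.34), and 1 higher and 1 lower in iPS-J (median 0.28). Zfp42 differed most from ESC, at -4.83 in iPS-OSH and -4.28 in iPS-J, with signals of 4.64 and 6.80 against 132. All 12 were higher than in MEF in each of the 3 pluripotent lines.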

How the data were processed

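The 4 populations were measured on 1 array each, with Cy3-labelled total RNA, per the labels. The deposited scanner output gives the intensity of each of 62976 spots, background-subtracted and detrended within the array by Agilent Feature Extraction 10.5.1.1 per the file headers, with its calls of spots well above background. The authors' deposited value table holds the same intensity rounded to whole numbers, within 0.497% of the scanner output.

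Control and outlier spots were left out, spots of a probe averaged, and log2 of the processed signal scaled by each array's 75th percentile over 59305 non-control spots. A gene was represented by its brightest probe. A probe entered a comparison if called above background on either array, and where it was so on 1 only, the difference is a limit, set by the lowest detected signal of the dim array or, where brighter, by the dim probe itself. With 1 array per group there is no test and no p-value, and the number of arrays limits the precision. Named genes were all members, up to 3 genes of each list with the largest measured difference, the 3 genes closest to a member in profile, 5 genes that check the cell populations, and probes between the members that carry a gene name. The members and lists were chosen with earlier results of these data known. Begain, and Dnmt3a against ESC, were named beyond that rule after their values were seen. Alternatives used limma 3.58.1 in R 4.3.3, and the counting was tested on simulated data. Sequences are from the probe column of the scanner output and from RefSeq. Some probe sequences and values of listed genes are not reported here.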

Additional observations from a re-analysis of the deposited data

Results flagged for a closer look

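Meg3 and Mirg lay on opposite sides of ESC in the iPS lines, past 2-fold in iPS-J and within 2-fold in iPS-OSH. Meg3 differed from ESC by 0.58 on the log2 scale in iPS-OSH and by -1.24 in iPS-J. Mirg differed from ESC by 0.52 in iPS-OSH and by -1.49 in iPS-J. These are values of the brightest probes. For iPS-OSH against ESC, Meg3 probes 1 and 2 gave 0.14 and 1.05, and Mirg probe 1 gave 0.82. The 0.14 is below the spot SD of 0.21 for bright probes. The forward probes from Meg3 to the end of Mirg had a median of -0.04. Each line is 1 array, and the difference between the lines was not tested.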

How the results depend on the processing

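Each comparison was recomputed under 9 alternatives and, as an alternative chosen after seeing the data, without scaling between arrays. In none did the median over the members change sign. Raising the threshold to 4-fold left 0 members higher in iPS-OSH against ESC and 1 in iPS-OSH against iPS-J, and 0 lower in iPS-J against ESC, 2 in iPS-J against MEF, 1 in iPS-OSH against MEF and 1 in ESC against MEF. Without the filter on dim probes 2 members were higher in iPS-OSH against ESC. In iPS-J against ESC 2 were lower, in place of 3, with normexp, quantile or detection on both arrays. With normexp background correction 3 were lower in iPS-J against MEF and 1 in iPS-OSH against MEF, and with detection required on both arrays 3 in iPS-J against MEF and 1 in ESC against MEF. Spike-in scaling and no scaling each gave 4 lower in ESC against MEF. Medians for iPS-OSH against ESC were 0.81 without scaling, 0.36 with the percentile over probes detected on all arrays, 0.38 with quantile and 0.91 with spike-in scaling. For iPS-J against ESC they were -0.92 with normexp, -1.57 with that percentile, -1.02 with quantile and -1.14 with spike-in scaling. For iPS-OSH against iPS-J they were 1.83 with detection on both arrays, 1.74 with the median of a gene's probes, 1.41 without filter and 1.37 with quantile. For iPS-OSH against MEF they were -1.14 without scaling, -0.54 with normexp and -0.70 with quantile. For iPS-J against MEF they were -2.30 with detection on both arrays and without filter, -2.36 with the median of probes, -2.48 without scaling, -2.14 with normexp and -2.28 with spike-in scaling. For ESC against MEF they were -1.17 with the median of probes, -1.25 without scaling, -0.57 with that percentile and -1.34 with spike-in scaling. The cause was not tested.

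Over these settings Meg3 stayed between 1.78 and 2.16 in iPS-OSH against iPS-J and between -1.86 and -1.02 in iPS-J against ESC, and Mirg between 1.97 and 2.34 and between -1.69 and -1.27. Dlk1 in iPS-J against ESC, from -0.26 to 0.17, and Dio3 in ESC against MEF, from -0.71 to 0.10, had no settled sign. The median over all genes in ESC against MEF was 0.13, but -0.40 with spike-in scaling, and in iPS-OSH against ESC -0.30, but 0.11. In iPS-J against ESC, 17.5% of all genes called were higher, but 43.1% with quantile normalization. The forward probes from Meg3 to the end of Mirg were then lower in 15 of 39, beside 16.2% of lincRNA region probes. For iPS-OSH against iPS-J they were higher in 11 of 39 with normexp, beside 1.77% of lincRNA region probes, and in 4 of 39 at 4-fold, beside 1.12%. In ESC against MEF they were lower in 15 and higher in 3 of 41 without scaling. The slide could not be used as a block because all arrays lie on 1 slide. No paired analysis was possible because each group holds 1 array. Dim signal limits Rtl1 and Dio3. Every Dio3 fold that involves iPS-J is a limit, as are the Rtl1 folds of iPS-J and ESC against MEF.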
